A study of Rattus norvegicus with 6 samples.

Results

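The TNF superfamily ligands Tnf, Lta, Ltb, Faslg, Tnfsf4, Tnfsf9, Tnfsf10, Tnfsf12, Tnfsf14 and Tnfsf18 were taken by gene name from the deposited count tables, 10 genes of 23139 listed. All 10 had enough reads to be tested, among 11977 tested genes. The cells were primary microglia from the cortex of Wistar rats at postnatal day 1, shaken off mixed glial cultures and purified with beads against CD11b/c, so that they were neonatal cells grown in serum. Each condition, with 3 biological replicates sequenced as mRNA, received lipopolysaccharide (LPS, a bacterial membrane component that activates microglia) at 100 ng/mL, in one case with DMSO as the solvent control (here LPS) and in the other with 50 µM siponimod, a modulator of sphingosine 1-phosphate receptors (here LPS/siponimod). Since both conditions carry LPS, every difference compares LPS/siponimod with LPS, and no unstimulated library was analysed here. The study's methods name the times at which cultures were fixed or lysed in general, but the time of RNA harvest is not restated for sequencing. In replicate order, the LPS libraries held 39484979, 38301365 and 38080379 counts in total, and the LPS/siponimod libraries 46643859, 43336006 and 38857441.

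Ligands of this family are made as membrane proteins that assemble into trimers and act on receptors of the TNF receptor superfamily, either on a neighbouring cell or after being cut from the surface. Microglia stimulated with LPS are a well-known source of TNF, whose gene is switched on quickly by NF-κB and whose mRNA is short-lived. Lymphotoxin α (Lta) and lymphotoxin β (Ltb) are better known from lymphocytes. FAS ligand (Faslg) and TRAIL (Tnfsf10) can trigger apoptosis through death receptors, TWEAK (Tnfsf12) acts on FN14, and the ligands OX40L (Tnfsf4), 4-1BBL (Tnfsf9), LIGHT (Tnfsf14) and GITRL (Tnfsf18) are known as costimulators of T cells.

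One library stood apart before any comparison. LPS replicate 3 was at least 4-fold above both other LPS libraries for 279 of the 11977 genes and at least 4-fold below both for 216. For LPS replicates 1 and 2 these numbers were 39 and 28, and 8 and 49. LPS/siponimod replicate 3 had 169 and 72, more than LPS/siponimod replicate 1 (22 and 37) and replicate 2 (78 and 42). Both libraries numbered 3 also held reads of other neural cells. Of 6 markers of the oligodendrocyte lineage, none was at 0 throughout, and their summed level was 5.05, 5.29 and 33.8 CPM (counts scaled to library size) in the LPS libraries and 11.4, 10.3 and 21.2 CPM in the LPS/siponimod libraries. Mbp, the most abundant of them, did not follow the libraries numbered 3. It had 149, 161 and 84 counts under LPS, lowest in replicate 3, and 470, 397 and 652 under LPS/siponimod, where it was higher (log2 FC 1.74, edgeR adjusted p = 0.0172), a call lost without LPS replicate 2, LPS/siponimod replicate 1 or LPS/siponimod replicate 3. Other genes of the lineage did, since Olig1 had 1, 5 and 515 counts under LPS against 2, 3 and 17 with LPS/siponimod, and Pdgfra had 5, 4 and 284 against 1, 4 and 81. Among neuronal markers Map2 had 0, 3 and 162 against 1, 1 and 115 counts (summed list 1.67, 1.04 and 11.3 against 6.39, 9.18 and 16.9 CPM, with Tubb3 the most abundant). Snap25, also neuronal, was instead called higher with LPS/siponimod, with 0, 1 and 1 against 94, 153 and 81 counts. It passed the filter on low counts only through LPS/siponimod. The astrocyte marker Gfap had 1, 2 and 88 against 0, 0 and 1. The summed astrocyte list was 48.3, 24.2 and 22.7 against 29.2, 28.7 and 58.9 CPM, with Slc1a3 the most abundant, and Aldoc was called lower (log2 FC -1.12, edgeR adjusted p = 0.0401), a call that held without LPS replicate 3 but in none of the 5 other fits with 1 library left out and not without both libraries numbered 3. For fibroblasts and endothelium the sums were 41.1, 108 and 22.7 against 15.3, 23.9 and 14.4 CPM, with Pecam1 the most abundant. Dcn, a fibroblast gene, went the other way, with 3, 0 and 4 counts under LPS against 456, 49 and 178 (edgeR adjusted p = 0.0155). It too passed the filter only through LPS/siponimod, and it was not called without LPS replicate 1, LPS replicate 2, LPS/siponimod replicate 1 or both libraries numbered 3. The part of these cells in the values below was not tested.

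The 10 microglial markers checked were all present, with summed levels of 7506, 6520 and 4593 CPM under LPS and 3720, 4543 and 2935 CPM under LPS/siponimod. Csf1r was the most abundant, and Itgam (log2 FC -0.87), Aif1 (-1.88) and Cx3cr1 (-3.65) were lower with LPS/siponimod (edgeR adjusted p = 0.0112, 0.0212 and 0.0392). Cx3cr1 passed the filter on low counts only through LPS. With single libraries left out, 0 (without LPS replicate 2, LPS/siponimod replicate 1 or LPS/siponimod replicate 3) to 5 microglial markers were called lower and at most 1 higher, with a median log2 FC between -0.95 and -0.67. None was called without both libraries numbered 3, and the replicate block called 5 lower and 1 higher. Of all tested genes, 5.16% to 30.3% were called with 1 library left out. The share was 19.3% without both libraries numbered 3 and 34.0% with the block. In bulk RNA, fewer cells of a type and less RNA per cell cannot be told apart. Many but not all lymphocyte genes were at or near 0. Cd3e and Cd3g (T cells), Cr2 (B cells) and Prf1 and Klrd1 (NK cells) had no count in any library, and 6 of 9 T cell and 3 of 4 NK cell genes had at most 3 counts in every library. The B cell genes Ms4a1, Cd79a and Pax5 had no more than 4 counts in any library. Reads were found, however, for the T cell genes Lck (324 to 386 counts in all libraries), Cd8a (25 to 100) and Zap70 (4 to 45) and for Cd79b and Klrb1a, which are given below beside Ltb and Faslg.

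In the rat genome several of these genes lie next to each other. In the RefSeq annotation of GRCr8, a later assembly than that used for mapping, Lta, Tnf and Ltb follow each other on chromosome 20 with no other protein-coding gene between them, and Tnfsf4, Tnfsf18 and Faslg do so on chromosome 13. The bases before the annotated start of the chromosome 20 genes are shown with that of Tnfsf14, because Tnf and Lta were both highest in 1 library whereas Ltb was not, and because Lta and Tnfsf14 carry the same match. RefSeq promoters were found for 7 of the 10 genes. Each run is the 250 bases before the start on GRCr8, read along the gene, and capitals mark matches, on either strand, to the NF-κB consensus or to the interferon-type motif TTCNNTTTC.
Lta (chr20:3623277-3623526, + strand): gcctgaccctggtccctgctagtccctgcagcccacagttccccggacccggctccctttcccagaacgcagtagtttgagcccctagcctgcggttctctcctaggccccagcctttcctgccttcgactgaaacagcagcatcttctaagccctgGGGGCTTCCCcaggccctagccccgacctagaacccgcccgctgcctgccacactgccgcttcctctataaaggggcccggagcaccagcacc
Tnf (chr20:3626435-3626684, + strand): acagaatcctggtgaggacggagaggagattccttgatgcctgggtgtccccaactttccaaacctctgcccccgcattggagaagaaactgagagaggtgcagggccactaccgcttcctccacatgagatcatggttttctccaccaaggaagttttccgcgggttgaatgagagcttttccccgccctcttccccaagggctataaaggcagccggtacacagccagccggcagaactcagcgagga
Ltb (chr20:3634055-3634304, - strand): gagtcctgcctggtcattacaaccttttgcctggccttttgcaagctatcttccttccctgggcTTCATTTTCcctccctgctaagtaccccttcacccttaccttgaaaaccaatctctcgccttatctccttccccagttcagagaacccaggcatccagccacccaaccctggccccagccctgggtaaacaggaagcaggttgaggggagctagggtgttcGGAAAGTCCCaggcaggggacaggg
Tnfsf14 (chr9:2160087-2160336, - strand): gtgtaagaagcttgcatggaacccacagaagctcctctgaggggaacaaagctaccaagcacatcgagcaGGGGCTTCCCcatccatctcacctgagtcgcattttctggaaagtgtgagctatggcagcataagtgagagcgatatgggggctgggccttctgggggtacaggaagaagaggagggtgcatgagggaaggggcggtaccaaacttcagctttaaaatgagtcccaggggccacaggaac

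The NF-κB consensus was matched 93 bases before the start of Lta and 180 bases before that of Tnfsf14, in both cases by GGGGCTTCCC, and 25 bases before the start of Ltb on the other strand. In the Tnf window neither motif occurred. Of 33469 rat promoters cut to the same length, 3.54% held the NF-κB consensus and 8.12% held TTCNNTTTC, which was also matched in Ltb (186 bases before the start) and in Tnfsf10 (134 bases before). The AP-1 motif TGANTCA (6.34% of promoters) and the ATF4-type motif TGATGNAA (3.4%) were in none of the 7 windows. No motif overlapped another in these windows. These are matches of letters and not mapped binding sites.

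With siponimod 3 of the 10 ligands were higher and 1 was lower when adjusted p could not exceed 0.05 and the fold change had to reach 1.5, the limits that define differentially expressed genes (DEGs). Faslg, Tnfsf18 and Tnfsf9 rose and Tnfsf14 fell, whereas Tnf, Lta, Ltb, Tnfsf4, Tnfsf10 and Tnfsf12 did not pass (edgeR quasi-likelihood test, Benjamini-Hochberg adjustment over all 11977 genes). Among all tested genes 25.3% were DEGs, 13.6% being higher and 11.7% lower, beside which the 4 of 10 genes are to be read. The LPS and LPS/siponimod values did not overlap for 6 of the 10, 4 higher and 2 lower, as was the case for 49.3% of all genes tested. The median log2 fold change (FC) of the 10 ligands was -0.80, with 4 positive and 6 negative values, against -0.02 over all tested genes, of which 5839 were positive and 6138 negative. With single libraries left out, the median of the ligands lay between -1.34 (without LPS/siponimod replicate 2) and -0.15 (without LPS replicate 3), and without both libraries numbered 3 it was at 0 (-0.000459). With 3 libraries against 3 an exact permutation test of a single gene cannot go below p = 0.10, and each adjusted p rests also on the spread that edgeR estimates over all genes.

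**Figure D1:**
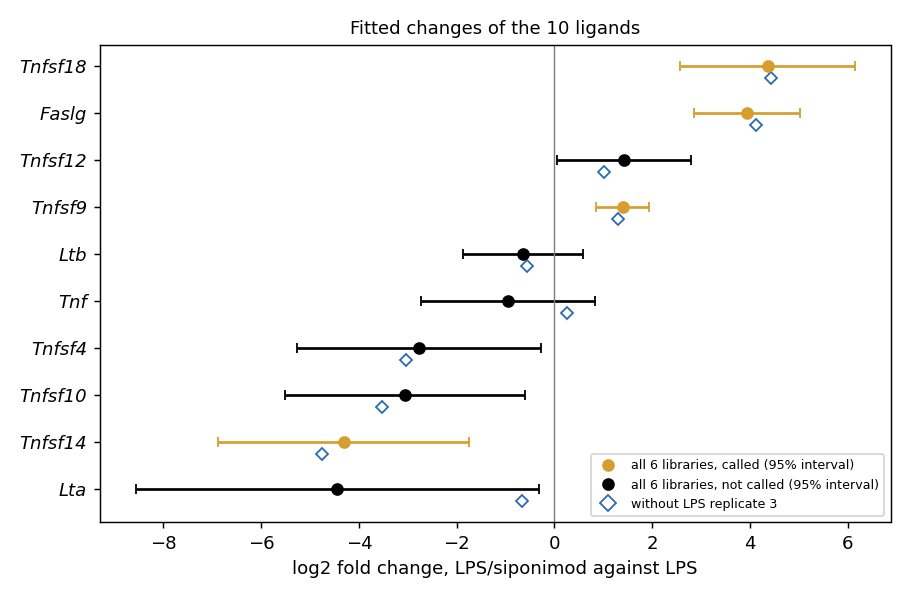
Fitted log2 FC of each ligand (x axis, LPS/siponimod against LPS) with its 95% interval, ordered by size, gold where called and black where not, and the value without LPS replicate 3 as an open diamond. Tnf moves from -0.95 to 0.26 and Lta from -4.44 to -0.67 without that library, while Faslg and Tnfsf18 stay near 4.

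Tnf, the founding member and the gene most tied to LPS, did not differ beyond the spread of the replicates. Its level was 75.1, 156 and 568 CPM in LPS replicates 1, 2 and 3 and 87.9, 188 and 137 CPM in LPS/siponimod replicates 1, 2 and 3. All LPS/siponimod values lie between the lowest and the highest LPS value, and LPS replicate 3 is high by itself. Mean levels were 266 ± 264 CPM under LPS against 138 ± 50.0 CPM under LPS/siponimod (SD, n = 3 each). The fitted log2 FC was -0.95 (95% interval -2.74 to 0.83, edgeR adjusted p = 0.358). Within same-numbered pairs, the difference in log2 CPM was 0.23, 0.27 and -2.05, so that Tnf was slightly higher in pairs 1 and 2 and lower in pair 3. Without LPS replicate 3 the log2 FC turned to 0.26 (standard error, SE, 0.43, edgeR adjusted p = 0.658).

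**Figure D2:**
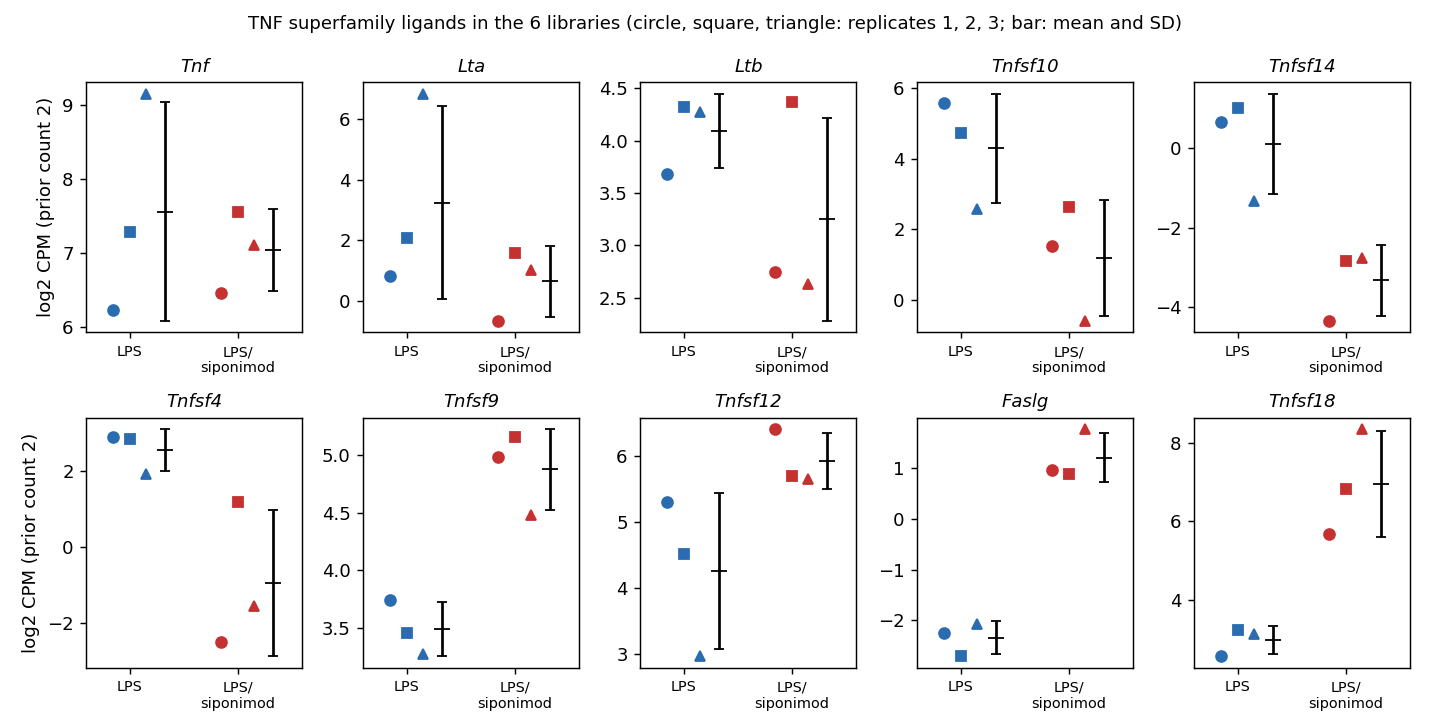
Level of each ligand as log2 CPM with a prior count of 2 (y axis, a separate scale in each panel) in the LPS (blue) and LPS/siponimod (red) libraries, with circles, squares and triangles for replicates 1, 2 and 3 and black bars for mean and SD. In LPS replicate 3, Tnf and Lta lie above the other LPS libraries and Tnfsf10, Tnfsf12 and Tnfsf14 below them, and the groups are apart for Faslg, Tnfsf4, Tnfsf9, Tnfsf12, Tnfsf14 and Tnfsf18.

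Lta, the gene next to Tnf, had 63, 161 and 4255 counts under LPS against 27, 132 and 82 with LPS/siponimod. LPS replicate 3 was 27.4-fold above the higher of the 2 other LPS libraries, and LPS replicate 1 lies within the LPS/siponimod range. The log2 FC of -4.44 had a SE of 1.71 and did not pass (edgeR adjusted p = 0.0961). Lta was lower with LPS/siponimod in each pair, by log2 differences of -1.47, -0.49 and -5.81. Without LPS replicate 3 the log2 FC was -0.67 (edgeR adjusted p = 0.50). Tnf reads outnumbered Lta reads 44.2 to 1 in LPS replicate 1 and 37.2 to 1 in replicate 2, but 4.96 to 1 in replicate 3. With LPS/siponimod this ratio was 151, 63.6 and 68.8.

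Ltb, which anchors lymphotoxin α to the membrane, did not share this pattern. It had 474, 766 and 719 counts under LPS against 309, 917 and 252 under LPS/siponimod. The log2 FC was -0.64 (95% interval -1.87 to 0.59, edgeR adjusted p = 0.367). LPS/siponimod replicate 2 was above every LPS library in CPM, and the 2 other LPS/siponimod libraries were below them all. Without LPS/siponimod replicate 2, Ltb was a DEG (log2 FC -1.44, edgeR adjusted p = 0.0197). The same library was high for Cd79b, the most abundant gene of the B cell list. Cd79b had 593, 2343 and 1145 counts under LPS against 38, 980 and 40 with LPS/siponimod. It was not called in the main fit (log2 FC -2.18, edgeR adjusted p = 0.248). Without LPS/siponimod replicate 2 it was called lower (-5.33, edgeR adjusted p = 0.0114), as with the replicate block (-3.49, edgeR adjusted p = 0.0266). The summed B cell list was 16.1, 60.8 and 30.8 CPM against 0.904, 22.1 and 1.02 CPM. Nearly all of this was Cd79b, with 16.0, 60.8 and 30.8 against 0.818, 22.0 and 0.974 CPM. Ms4a1, Cd79a and Pax5 had no more than 4 counts in any library, and Cr2 was at 0. The sum thus repeats Cd79b and does not show a set of B cell genes. Whether any B cells were present, and their part in the Ltb values, was not tested.

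Tnf and Lta were not alone in their excess in LPS replicate 3. The cytokine and chemokine genes of a list of NF-κB factors and early targets were above both other LPS libraries there, Cxcl1 by 11.2-fold, Il6 by 9.79-fold, Cxcl2 by 9.32-fold, Il1b by 4.01-fold and Ccl2 by 3.81-fold over the higher one, and Tnf by 3.65-fold. The 10 other genes of that list lay between 0.622 (Relb) and 1.79 (Rel) times the higher one. Among all 11977 genes Lta ranked 28 and Tnf 308 by this excess, after the CPM of 1 count was added to each value. Tnfsf10 (rank 174) and Tnfsf14 (rank 199) lay at the other end, with LPS replicate 3 at least 4-fold under both other LPS libraries. Tnfsf12 was 2.93-fold under them (rank 414). Thus the same library was extreme in opposite directions for different ligands.

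**Figure D3:**
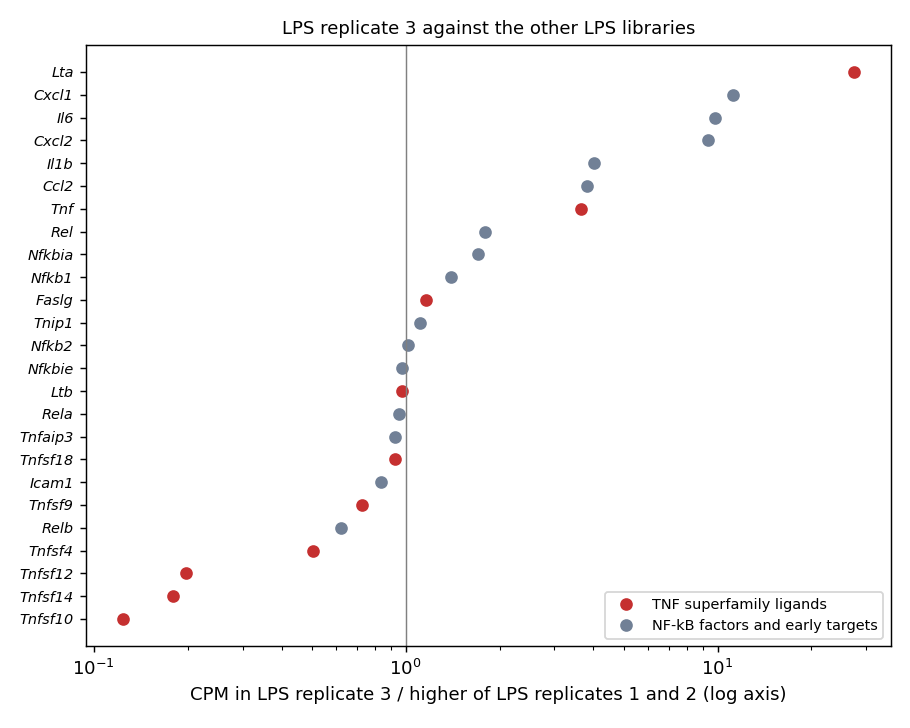
CPM in LPS replicate 3 divided by the higher of LPS replicates 1 and 2 (x axis, log scale) for the 10 ligands (red) and 15 NF-κB factors and early targets (grey). Lta (27.4) and Tnf (3.65) lie on the side of Cxcl1, Il6 and Cxcl2, and Tnfsf10 (0.124), Tnfsf14 (0.180) and Tnfsf12 (0.197) lie lowest.

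Of the ligands linked to cell death, Faslg rose in all libraries from a low level. It had 6, 4 and 7 counts under LPS against 89, 80 and 138 with LPS/siponimod, without overlap (0.151 ± 0.0432 against 2.36 ± 0.873 CPM, SD, n = 3 each). Its log2 FC was 3.94 (SE 0.45, edgeR adjusted p = 0.00654). Faslg passed the filter on low counts only through the LPS/siponimod libraries, where it is high, so that a difference of this direction is partly set by the filter. The increase was similar in the 3 pairs (3.22, 3.59 and 3.85), and Faslg stayed a DEG in all 6 fits that left out 1 library. Faslg is also a gene of cytotoxic lymphocytes. In the list for NK cells Klrb1a moved with it, from 6, 4 and 1 counts to 102, 100 and 67 (log2 FC 4.33, edgeR adjusted p = 0.00783), which also passed the filter only through LPS/siponimod and was not called without LPS replicate 2 (edgeR adjusted p = 0.0539), while Prf1 and Klrd1 were at 0. The summed NK cell list was 0.162, 0.104 and 0.0807 CPM with LPS and 2.19, 2.24 and 1.63 CPM with LPS/siponimod. With LPS/siponimod this sum was Klrb1a alone, so that it repeats 1 gene. Ncr1 and Gzmb, also meant for that list, were not among the genes counted. Summed T cell markers lay between 9.90 and 13.8 CPM under LPS and between 8.79 and 10.1 CPM under LPS/siponimod, with Lck the most abundant.

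Tnfsf10, the gene of TRAIL, had 1770, 1012 and 220 counts under LPS against 130, 276 and 25 with LPS/siponimod. LPS replicate 3 was low and fell just inside the LPS/siponimod range (5.92 against at most 6.18 CPM). The log2 FC was -3.06 with a SE of 1.02, which did not pass (edgeR adjusted p = 0.0669). Each pair showed a lower value with LPS/siponimod (-4.07, -2.08 and -3.18 in log2 CPM). With the replicate number as a block Tnfsf10 was a DEG (log2 FC -3.13, SE 0.44, edgeR adjusted p = 0.00907), as it was without LPS replicate 3 (-3.53, edgeR adjusted p = 0.0316). A long non-coding RNA overlaps Tnfsf10 in GRCr8.

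Tnfsf12, the gene of TWEAK, went the other way. Its counts were 1463, 880 and 289 under LPS against 3964, 2335 and 2062 with LPS/siponimod, and the groups did not overlap (23.4 ± 15.9 against 62.6 ± 19.7 CPM, SD, n = 3 each). The log2 FC of 1.42 (SE 0.57) did not pass the test (edgeR adjusted p = 0.105). It passed with the replicate block (log2 FC 1.64, SE 0.36, edgeR adjusted p = 0.0235). Within pairs the difference was 1.11, 1.19 and 2.68. In the later assembly Tnfsf12 overlaps the protein-coding gene Eif4a1l, and how reads of overlapping genes were divided is not given in the sources used here.

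The costimulatory ligands moved in both directions. Tnfsf18, the gene of GITRL, had the highest log2 FC of the family. Its counts were 216, 362 and 322 under LPS against 2369, 5044 and 13378 with LPS/siponimod, so that the lowest LPS/siponimod library was far above the highest LPS library. The LPS libraries were close together (7.96 ± 1.88 CPM), whereas the LPS/siponimod libraries spanned 51.0 to 326 CPM (163 ± 144 CPM, SD, n = 3 each). The log2 FC was 4.36 (SE 0.74, edgeR adjusted p = 0.012), with 3.12, 3.58 and 5.23 in the pairs. LPS/siponimod replicate 3, which also carried the neural markers, had the highest value. In LPS replicate 3, which carried such markers too, Tnfsf18 was at 8.66 CPM, against 5.83 and 9.39 CPM in LPS replicates 1 and 2. A link between the markers and Tnfsf18 was not tested. Without LPS/siponimod replicate 3 the log2 FC of Tnfsf18 was 3.37, below the 3.59 of Faslg. Without both libraries numbered 3 the log2 FC of Tnfsf18 was 3.43 (edgeR adjusted p = 0.0334), below the 3.78 of Faslg. Without LPS replicate 2 the adjusted p was 0.0601. In GRCr8 a long non-coding RNA overlaps Tnfsf18.

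Tnfsf9, the gene of 4-1BBL, showed the smallest spread. It had 494, 422 and 358 counts under LPS against 1462, 1591 and 916 with LPS/siponimod, with no overlap (11.3 ± 1.88 against 29.8 ± 6.81 CPM, SD, n = 3 each). The log2 FC was 1.40 (SE 0.22, edgeR adjusted p = 0.0107), and the pairs gave 1.24, 1.70 and 1.21. Leaving out LPS replicate 2 or LPS/siponimod replicate 1 moved the adjusted p of Tnfsf9 to 0.0569 and 0.0539, with log2 FCs of 1.39 and 1.35.

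Tnfsf4 and Tnfsf10 were downregulated DEGs with DESeq2, the likelihood ratio test and the replicate block. In the main fit Tnfsf14, which encodes LIGHT, was the only member that was a downregulated DEG. It had 57, 75 and 13 counts under LPS against 0, 4 and 4 with LPS/siponimod, where 3 counts correspond to between 0.0646 and 0.0731 CPM, so that it was close to undetected. The log2 FC was -4.31 with a SE of 1.06 (edgeR adjusted p = 0.0299), and its size is imprecise at these counts. It passed the filter on low counts only through the LPS libraries. Tnfsf14 remained a DEG without LPS replicate 3 (-4.76, edgeR adjusted p = 0.0185) but in none of the 5 other fits with 1 library left out, in which the adjusted p lay between 0.0839 and 0.130.

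Tnfsf4, the gene of OX40L, had 277, 276 and 140 counts under LPS against 6, 101 and 12 with LPS/siponimod. The groups did not overlap, but LPS/siponimod replicate 2 was far above the other two LPS/siponimod libraries (2.26 against 0.129 and 0.292 CPM). With a SE of 1.03, the log2 FC of -2.77 did not pass (edgeR adjusted p = 0.0886). The replicate block made Tnfsf4 a DEG (-3.43, edgeR adjusted p = 0.0312), and so did leaving out LPS/siponimod replicate 2 (-4.86, edgeR adjusted p = 0.00976). Tnfsf4 passed the filter on low counts only through LPS, where it is high, so that this direction is partly set by the filter. Values within pairs were -5.40, -1.64 and -3.48.

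Neighbouring genes differed in their values. On chromosome 13, Tnfsf18 and Faslg rose while Tnfsf4, the third gene of the row, had a negative log2 FC in every pair. On chromosome 9, Tnfsf9 rose and Tnfsf14 fell, with Cd70 between them at no more than 3 counts in any library. On chromosome 20, Tnf and Lta were highest in LPS replicate 3 and Ltb was not.

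The likeness of patterns was measured as the root mean square distance between log2 CPM profiles over the 6 libraries, each centred on its own mean. The genes most like Tnf were Celf3 (0.258), Ift57 (0.263) and Basp1 (0.274), against a spread of 0.946 for Tnf itself, and all 3 were highest in LPS replicate 3 (Basp1 with 3268, 5208 and 15403 counts against 2591, 6643 and 4973). Closest to Lta were Parm1 (0.616), a gene listed only by its Ensembl identifier (0.931) and the potassium channel gene Kcnj10 (0.97), whose counts were 5, 14 and 178 under LPS against 8, 7 and 13 with LPS/siponimod. Faslg was most like Zfp347 (0.101), the lipid synthesis gene Agpat2 (0.182) and the endoplasmic reticulum chaperone gene Dnajb9 (0.233, counts of 573, 544 and 678 against 7556, 4674 and 8928). At the low LPS counts of Faslg its values, and with them these distances, depend on the prior count. Tnfsf18 was closest to Fa2h (0.371), Clca2 (0.424) and Ccr1l1 (0.556), which had 0 or 1 count in each LPS library and were highest in LPS/siponimod replicate 3. These passed the filter on low counts only through LPS/siponimod, and their LPS values are set by the prior count, so that the distances do not show a likeness under LPS. Each of these distances is a description of 6 libraries. Within the family, Faslg and Tnfsf18 (0.680), Tnfsf9 and Tnfsf12 (0.633) and Tnf and Ltb (0.823) were among the closest pairs. The distance is not scaled to the size of the changes, so that genes with small changes lie near each other. For Tnf and Ltb it was close to the spread of Tnf itself (0.946) and does not show a shared pattern.

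Among 8 further ligands of the superfamily, 5 (Tnfsf8, Tnfsf11, Cd40lg, Cd70 and Eda) had at most 3 counts in every library, and 3 were tested. Tnfsf15, the gene of TL1A, rose from 116, 47 and 66 counts to 448, 432 and 832 (log2 FC 2.69, SE 0.48, edgeR adjusted p = 0.0136), and was not called without LPS replicate 2 (2.44, edgeR adjusted p = 0.0596). For Tnfsf13 (APRIL) and Tnfsf13b (BAFF), both B cell survival factors, the groups overlapped, with log2 FCs of -0.19 (95% interval -0.85 to 0.47) and -0.43 (-1.78 to 0.92).

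Of 11 genes for receptors of the 10 ligands 7 were tested, of which 4 fell and none rose, with a median log2 FC of -1.07 (all tested genes, 11.7% lower and 13.6% higher, median -0.02). Tnfrsf9, the receptor of Tnfsf9, fell from 118, 199 and 456 counts to 2, 25 and 19 (log2 FC -4.27, SE 0.94, edgeR adjusted p = 0.023), while its ligand rose. Tnfrsf9 passed the filter on low counts only through LPS, where it is high, so that this direction is partly set by the filter. Fas, the receptor of Faslg, fell likewise (7.74 ± 2.08 to 3.69 ± 0.437 CPM, log2 FC -1.07, edgeR adjusted p = 0.0291). Tnfrsf1b, the second TNF receptor, had a log2 FC of -1.14 (1473 ± 459 to 671 ± 115 CPM, edgeR adjusted p = 0.0291), and Tnfrsf14, a receptor of LIGHT and Lta, one of -1.11 (edgeR adjusted p = 0.0375). For the widely expressed TNF receptor Tnfrsf1a the log2 FC was -0.11 (95% interval -0.42 to 0.21). Tnfrsf12a, the receptor of Tnfsf12, had 37, 62 and 123 counts against 157, 112 and 635 (log2 FC 1.85, edgeR adjusted p = 0.136), and was a DEG with the replicate block (1.56, edgeR adjusted p = 0.028). Receptors of Tnfsf4 and Tnfsf18 (Tnfrsf4 and Tnfrsf18) had at most 7 counts in any library. With single libraries left out, between 0 (LPS/siponimod replicate 1 or replicate 3) and 4 receptors were called lower, while the median log2 FC stayed between -1.18 and -0.85. Without both libraries numbered 3 none was called, at a median of -0.90. Of all tested genes, 6.22% were called without LPS/siponimod replicate 1 and 8.50% without LPS/siponimod replicate 3. The share was 19.3% without both libraries numbered 3.

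**Figure D4:**
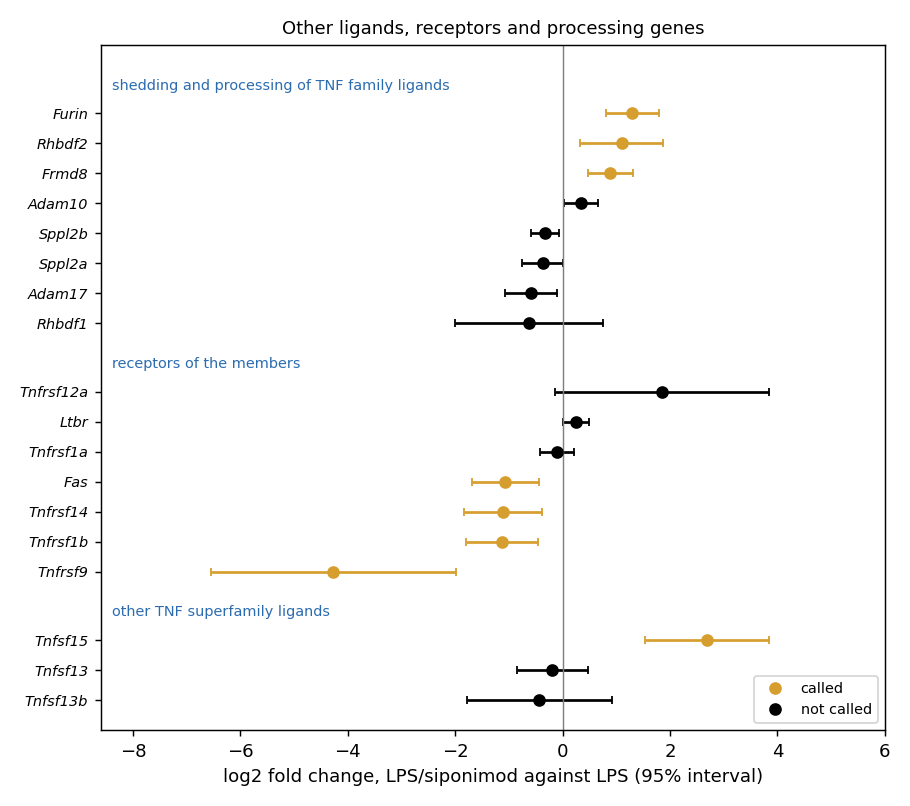
Fitted log2 FC with 95% interval (x axis, LPS/siponimod against LPS) of the tested further ligands, receptors and processing genes, gold where called and black where not. Tnfsf15 (2.69), Furin, Rhbdf2 and Frmd8 lie on the side of higher values and Tnfrsf9 (-4.27) lies lowest.

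Of 8 tested genes that release or mature these ligands 3 were higher and none lower, with a median log2 FC of 0.01, against 13.6% higher and 11.7% lower among all tested genes. Furin, a protease that cleaves the precursors of ligands such as TWEAK, rose from 147 ± 36.6 to 362 ± 21.5 CPM (SD, n = 3 each), a 2.46-fold change (edgeR adjusted p = 0.0106). Frmd8 (0.89, edgeR adjusted p = 0.0171) and Rhbdf2 (1.10, edgeR adjusted p = 0.0466), which both support the TNF-releasing protease ADAM17, were higher too. Adam17 itself had a log2 FC of -0.58 (95% interval -1.06 to -0.10, edgeR adjusted p = 0.0728), and was called lower without both libraries numbered 3 (-0.83, edgeR adjusted p = 0.0458). When single libraries were left out, between 0 (without LPS replicate 2) and 3 of these genes were called. Of all tested genes, 5.16% were called without LPS replicate 2.

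Of 11 genes listed as linked to the making or decay of Tnf mRNA, 2 were higher and none lower (median log2 FC 0.27). This was near the 13.6% called higher among all tested genes. Whether each listed gene, Ier3 among them, acts on Tnf mRNA in these cells was not tested. With single libraries left out, 0 (without LPS replicate 2, where 5.16% of all tested genes were called) to 3 of the 11 were called higher. Rc3h1, which encodes the RNA-binding protein roquin, rose by 1.38 (edgeR adjusted p = 0.00994) and Ier3 by 3.23 (0.0256) on the log2 scale, whereas Zfp36, whose product tristetraprolin destabilises Tnf mRNA, had a log2 FC of -0.46 (95% interval -1.23 to 0.30). Downstream of the receptors, 2 of 17 adaptor and kinase genes were higher and 1 was lower (median 0.01), no more than the 13.6% and 11.7% of all tested genes. With single libraries left out, 1 to 3 were called higher and 0 to 2 lower. Traf1 (log2 FC 2.47, edgeR adjusted p = 0.00733) and Birc2 (2.48, 0.0261), which encode partners of the TNF receptor complex, rose, and Traf5 fell (-2.08, 0.0332). Of the 15 NF-κB factors and early targets 2 were higher and 2 lower (median -0.01), close to the same shares. Rela (0.80, edgeR adjusted p = 0.00886) and Rel (1.06, 0.038) rose and Tnip1 (-0.87, 0.0275) and Nfkb2 (-0.66, 0.0301) fell. The NF-κB list held 5 higher and 2 lower genes without LPS replicate 3 (median 0.37) but none in either direction without LPS replicate 2 (median -0.22). Over all tested genes, 30.3% were called without LPS replicate 3 and 5.16% without LPS replicate 2. Without LPS/siponimod replicate 2 the list held 1 higher and 3 lower (23.4% called over all tested genes). Without any one of the 3 other libraries it held 1 higher and none lower (6.22% to 13.9% called over all tested genes).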

How the data were processed

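RNA of 6 libraries was sequenced as single-end reads and processed in the CLC Genomics Workbench after demultiplexing with bcl2fastq (version 2.20.0.422). The authors trimmed the reads, mapped them to the rat genome (mRatBN7.2) and deposited total read counts per gene and library, without normalization. Whether strand was used and where ambiguous reads were placed is not given in the sources used here. A single row with neither name nor value, in LPS replicate 1, was left out.

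The analysis used edgeR (version 4.0.16) under R (version 4.3.3). Its filterByExpr function (minimum count 10, minimum total 15) left 11977 genes, which were scaled by TMM and tested with glmQLFit and glmQLFTest, the condition being the only term. Calls required an adjusted p no higher than 0.05 with a fold change of 1.5 or more. Standard errors are the log2 FC divided by the square root of F. CPM use TMM-scaled totals. 1 count equals 0.0215 to 0.0270 CPM.

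The 10 ligands were fixed by name, and the members, lists and tests were chosen with earlier results of these data known. Named are all 10, up to 3 called genes per direction of each list, the most abundant marker, and the 3 genes nearest to Tnf, Lta, Faslg and Tnfsf18 in profile. Further marker genes and the early targets compared in LPS replicate 3 were chosen after their values were seen, as were list genes named without a call and the called receptor gene Tnfrsf14.

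Same-numbered libraries deviated together from their group means over genes (correlations 0.420, 0.545 and 0.611, other pairs across conditions -0.534 to 0.0856). The numbers were therefore read as pairs for the within-pair differences and the replicate block, a reading that rests on the counts and not on the labels. The main fit, with the condition as its only term, did not use these pairs. Alternatives were RLE scaling, DESeq2 (version 1.42.0), limma-voom (limma version 3.58.1), the likelihood ratio test, other filters, the replicate block and each library left out. Leaving out both libraries numbered 3 was added after the data were examined. The replicates are called biological in the study, and whether they came from separate animals is not given, so that p-values measure the spread between these libraries. The values of 1 marker gene are not reported here.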

Additional observations from a re-analysis of the deposited data

How the results depend on the processing

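The number of ligands called higher was 3, and it was 4 with DESeq2, the likelihood ratio test and the replicate block, and between 1 (without LPS replicate 2) and 3 with single libraries left out. The number called lower was 1, and it was 3 with DESeq2, 2 with limma-voom, 4 with the likelihood ratio test, 3 with the replicate block, and between 0 and 2 with single libraries left out, where the 4 fits with 0 had 1 to 3 lower at an unadjusted p under 0.05. Quasi-likelihood tests gave 0 with no filter beyond 1 count, where 4 were lower at an unadjusted p under 0.05, and 0 with a mean of at least 1 CPM, where Tnfsf14 was removed and 3 were lower unadjusted. Without both libraries numbered 3 it was 2. Tnf turned from -0.95 to 0.26 without LPS replicate 3 and to 0.26 without both libraries numbered 3. It kept a negative log2 FC in the 12 other settings, between -1.37 and -0.48, and passed in none. Lta passed with the likelihood ratio test (log2 FC -4.44, adjusted p = 0.0154). DESeq2 gave it no adjusted p. With the replicate block its log2 FC was -2.57 (edgeR adjusted p = 0.164). The block changed the call of Tnfsf4, Tnfsf10 and Tnfsf12 and of no other ligand. With single libraries left out, the log2 FC lay between -1.37 and 0.26 for Tnf and between -4.97 and -0.67 for Lta. Over all genes, DEGs numbered 3036 (25.3%), and 4074 (34.0%) with the block. With single libraries left out they numbered from 651 (5.16%, without LPS replicate 2) to 3713 (30.3%, without LPS replicate 3). They were 32.7% of genes with an adjusted p with DESeq2, 25.9% with limma-voom and 29.8% with the likelihood ratio test. The share was 14.9% with no filter beyond 1 count, 26.5% with a mean of at least 1 CPM and 19.3% without both libraries numbered 3. The counts of ligands are to be read beside these shares. The cause of these changes in call was not tested.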
